A study of Sus scrofa with 6 samples.

Results

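Ovary of early pregnant sows was compared with ovary of non-pregnant sows, with 1 Affymetrix array on each side. These are the arrays titled ovary EP and ovary np, 2 of the 6 arrays in the series, taken by their labels and not by any measured value. The other 4 arrays hold late pregnant ovary and, at the same 3 stages, tissue labelled myometrium, the muscle wall of the uterus. A sow is an adult female pig, and the labels name no allele, drug or other treatment: the groups are different animals, labelled by stage of reproduction. The day of pregnancy, the phase of the cycle of the non-pregnant animals, and breed and age are not known here. The design text counts 9 pigs, 3 for each stage, but whether an array carried RNA of 1 pig or of several is not given. No test was made of this comparison, since each side is 1 array and has no replicate spread.

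In the pregnant pig the ovary carries corpora lutea, glands that form from the ruptured follicle and secrete progesterone throughout gestation. Luteal cells take up cholesterol from lipoproteins, STAR moves it into mitochondria, CYP11A1 turns it into pregnenolone and HSD3B1 makes progesterone from that. The pig corpus luteum of pregnancy is also a classic source of relaxin, a peptide of the insulin family that is stored in secretory granules after proteolytic cutting of its precursor. In a pig that is not pregnant, prostaglandin F ends the life of the corpora lutea and new follicles follow.

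Values are MAS5 signals, a linear brightness for each probe set (a group of short probes for 1 transcript). Signals under a floor of 81.7 were raised to it, and where 1 of the signals was at the floor the ratio is given as "at least". The brightest probe set stood for each of 6567 named genes, of which 5466 exceeded it in 1 or both groups and are called measured. Across 13655 probe sets above it on both, which are not independent replicates, the arrays correlated at Pearson's r of 0.96 on the log2 scale. Among the named genes above the floor on both, 83.6% differed by less than 1.5-fold, and the median log2 ratio, early pregnant over non-pregnant, was -0.08 over all measured genes. At 2-fold or more, 110 genes were higher in early pregnancy, 2.01% of those measured, and 135 were lower, 2.47%. Of these, 17 were at least 4-fold higher and 8 at least 4-fold lower. Among the 1168 genes with a mean signal of 2000 or more, 1.71% were 2-fold higher and 1.46% lower, against 1.64% and 1.69% of the 2070 genes from 500 to 2000, and 2.51% and 3.73% of the 2228 genes under 500. Over all 15237 measured probe sets, named or not, 2.45% were 2-fold or more higher and 2.15% lower. Late pregnant ovary, set against the same non-pregnant array, had 2.8% of named genes higher and 3.35% lower. Since both comparisons share that array, the late pregnant signal is given beside the others as a level. Counts of genes by the order of the 3 ovary arrays describe those single arrays, and the members of a list are not replicates. The ratio of 3' to 5' GAPDH probe sets, a measure of RNA integrity, was 2.33 on the non-pregnant and 1.99 on the early pregnant array, and that of actin was 3.38 and 2.56; the part of RNA quality in the results was not tested.

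**Figure D1:**
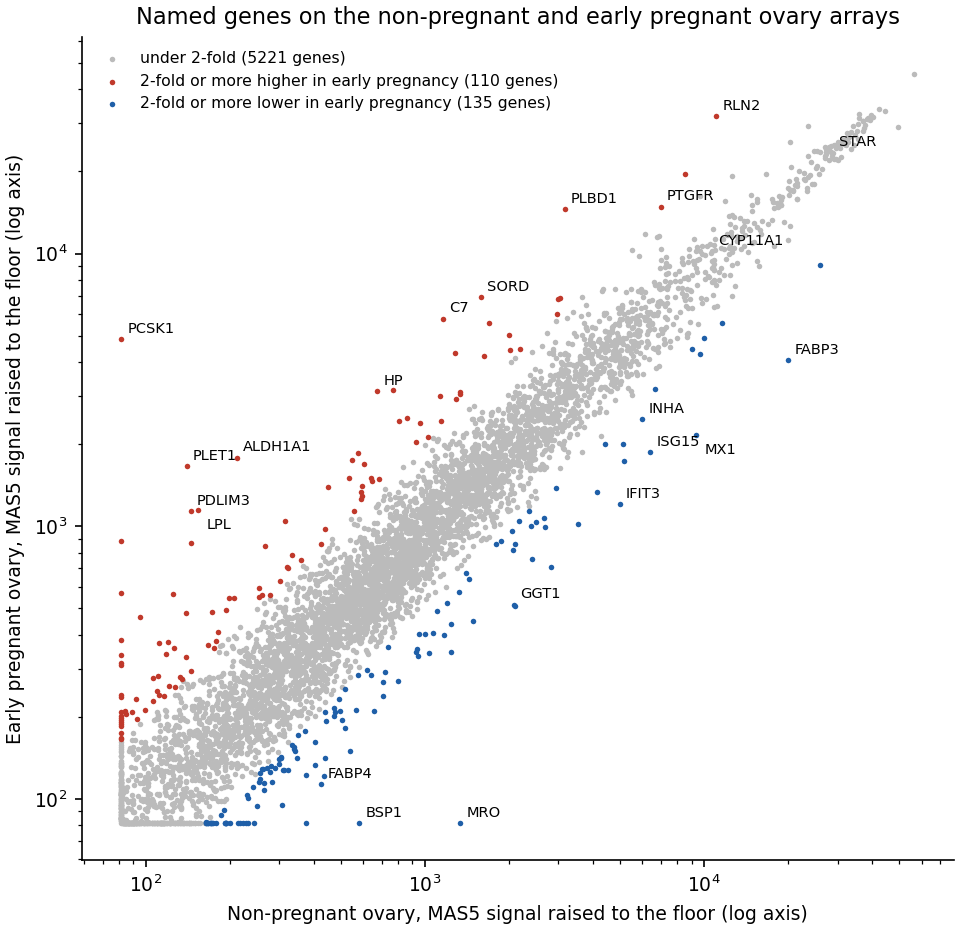
MAS5 signal of each measured named gene on the non-pregnant array (x) and the early pregnant array (y), both on log axes and raised to the floor of 81.7, 1 point per gene. The 110 genes 2-fold or more higher in early pregnancy (red) include PCSK1 at the left edge and RLN2 at the top, the 135 lower ones (blue) include FABP3 and MX1, and most genes lie near the diagonal.

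Defining markers fit the label of ovary on both arrays. All 7 luteal markers lay above the floor, their signals summing to 86330 without pregnancy and to 104600 early in it. The higher sum came from RLN2, and the other 6 summed to 75300 and 72730. The non-pregnant ovary therefore also carried luteal genes at a high level. Of 5 granulosa markers 4 were above the floor on each array, with sums of 19670 and 12090, while FOXL2 was under it on both. All 4 oocyte markers were above it but dim, with sums of 1044 and 680.0. Of 5 epithelial markers 4 were above the floor, with sums of 922 and 868, whereas the same markers summed to 41140 and 30080 on the corresponding arrays labelled myometrium, so that this tissue held epithelial transcripts. Smooth muscle markers summed to 9988 and 16820 there, below the 30200 and 32140 of ovary, with ACTA2 at 7613 and 13313 and desmin at 90.6 and 70.4, so that those arrays were not richer in muscle markers than ovary. Both adipocyte markers on the array, ADIPOQ and LEP, were under the floor. In whole tissue, fewer cells of a type and less RNA per cell cannot be told apart, which holds for every result that follows.

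Relaxin and 2 enzymes that mature peptide hormones, PCSK1 and PAM, were higher in early pregnancy. RLN2, which encodes relaxin, read 11029 without pregnancy, 31899.6 early and 29660.1 late in it, so that both pregnant arrays were high. PCSK1, a convertase that cuts prohormones at paired basic residues, read 65.5, 4848 and 7917 in the same order. It was at least 59.3-fold higher in early pregnancy, the highest ratio of any named gene, and at most 19.5 on the 2 corresponding arrays labelled myometrium. PAM, which amidates the ends of peptides, read 2968, 5993 and 6766, a log2 ratio of 1.01. Of 25 listed genes of prohormone processing and the secretory granule, 12 were measured, 8 on both arrays. Among these 2 were 2-fold or more higher (PCSK1 and PAM), 1 lower (CHGA, a granule matrix protein, 164 and 52.3), and the median log2 ratio was 0.35 against -0.08 over all genes. Of the 12, 11 lay above 0, against 42.1% of all measured named genes. PCSK1 and the granule proteins SCG3 and CHGB were above the floor in early pregnancy alone, so they could not lie below 0. Besides PCSK1 and PAM, the 11 ran on the log2 scale from the convertase PCSK7 at 0.02 and SCG5, a chaperone of another convertase, at 0.03 to QPCT, which cyclizes peptide ends, at 0.67. SCG2 and PCSK2 were under the floor on both arrays.

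Other secreted luteal factors split in direction. AGT, angiotensinogen, read 315, 1045 and 1789 in non-pregnant, early and late pregnant ovary, a ratio of 3.32-fold for the first pair. ADM, the vasodilator adrenomedullin, read 532, 1497 and 455, so that it stood out in early pregnancy alone of the 3 ovary arrays. VEGFA, an endothelial growth factor, had a log2 ratio of 0.76, although its next probe set had 0.14. INSL3, a relaxin relative, differed little, with 3994 and 4552. In the list of luteal peptide hormones and growth factors, 3 of 16 measured genes were 2-fold or more higher and 2 lower, with a median of 0.31.

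The lower ones were INHA and FST, genes of granulosa cells. INHA, the inhibin alpha subunit, read 6006, 2465 and 5803, and FST, the activin-binding protein follistatin, 4400.3, 2005 and 4219. In both, the early pregnant array was low and the late pregnant array lay near the non-pregnant level. The next FST probe set had a log2 ratio of -1.47. Of 13 measured genes in the granulosa and follicle list 4 were 2-fold or more lower, 0 were higher and the median was -0.19. Besides INHA and FST these were LRP8, a lipoprotein receptor (5140.0 and 1738), and PTX3, a protein of the expanding cumulus matrix (2361 and 1134). SERPINE2 read 8919 and 7322, and the FSH receptor FSHR 337 and 296. In the oocyte list 1 of 7 genes, GDF9, was 2-fold lower (272 and 130), and 0 were higher.

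Among hormone receptors, the prostaglandin F receptor PTGFR read 6982, 14853 and 16721 at the 3 stages. Its log2 ratio was 1.09, and that of its next probe set 2.58. LHCGR, the receptor for luteinizing hormone, read 2480, 3762 and 3310, a log2 ratio of 0.60 (0.76 for the next probe set). The oestrogen receptor ESR1 read 92.4, 233 and 231, dim on all 3 arrays. AMHR2, the receptor for anti-Mullerian hormone, was lower without reaching 2-fold, at 277 and 166. Of 12 measured hormone and prostaglandin receptors 2 were 2-fold or more higher, 0 lower, and the median was 0.14.

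Genes of progesterone synthesis itself were bright on both arrays and mostly differed by less than 2-fold. STAR read 28846, 23450.5 and 25987 in non-pregnant, early and late pregnant ovary, and CYP11A1 10664, 10180 and 11227. HSD3B1 read 19261, 13015 and 16394, a log2 ratio of -0.57, but its next probe set went the other way at 0.23. NR5A2, a nuclear receptor of steroid-making cells, read 5741, 3572 and 6326, with -0.68 and -0.75 for its probe sets. The early pregnant array thus had the lowest signal of the 3 for each of these genes. Of 18 measured genes in this list 10 were lowest on it, 55.6%, against 35.1% of all named genes. Only HSD11B2, which inactivates cortisol, was 2-fold or more lower among the 18 (1101 and 490.2), 0 were higher and the median was -0.21. HSD11B1, which acts in the reverse direction, read 862 and 1422.

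**Figure D2:**
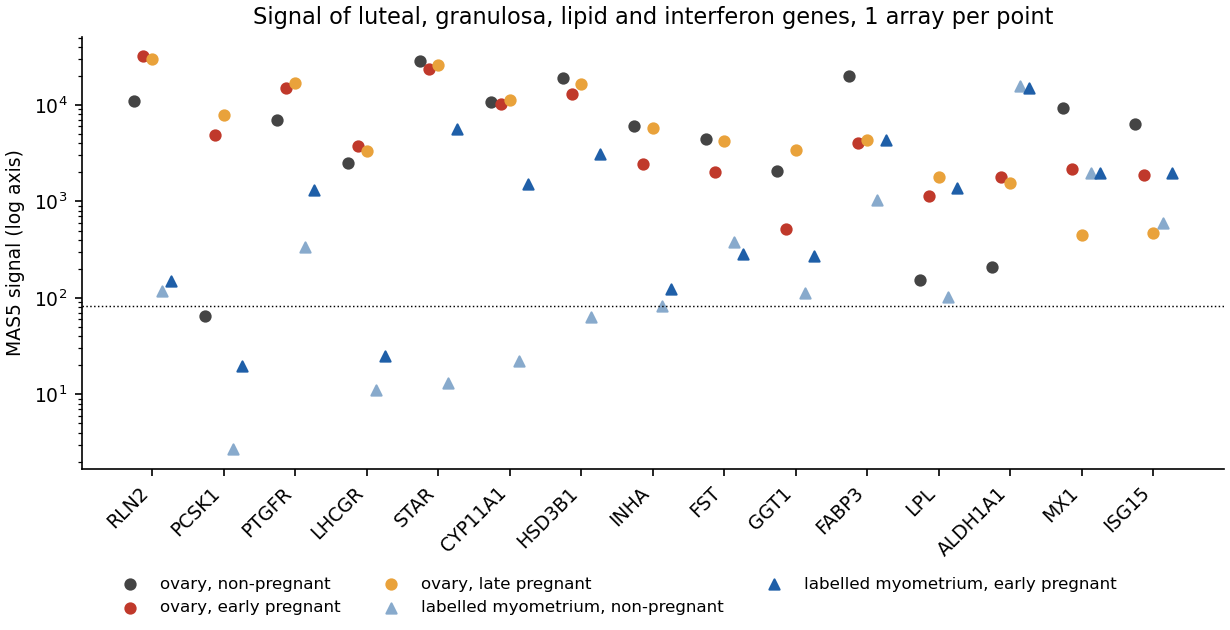
MAS5 signal (log axis) of 15 genes on the 3 ovary arrays (circles) and the non-pregnant and early pregnant arrays labelled myometrium (triangles), 1 array per point, with the floor of 81.7 dotted. PCSK1 and LPL are low in non-pregnant ovary and high on both pregnant ovary arrays, RLN2 is bright on all 3 and lowest in non-pregnant ovary, INHA, FST and GGT1 are lowest in early pregnant ovary, and MX1 and ISG15 step down from non-pregnant to late pregnant ovary.

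Oestrogen and androgen genes showed a mixed picture. CYP19A3, an aromatase of the pig, read 8691, 5060 and 7198, with log2 ratios of -0.78 and -0.87 for its probe sets. HSD17B1, which makes oestradiol, read 7505, 4560 and 12061. Its relative HSD17B4, a peroxisomal enzyme that oxidizes oestradiol and long fatty acids, was higher on both pregnant arrays, with 2984, 6816 and 10226. It was the 1 gene of 9 measured that was 2-fold or more higher, and 0 were lower. None of the 4 measured genes of prostaglandin synthesis and breakdown reached 2-fold.

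Genes that handle cholesterol differed in both directions. NPC1, which exports cholesterol from lysosomes, read 2029, 3994 and 5412, and LIPA, the lysosomal cholesteryl ester hydrolase, 3375, 6120 and 5767. Their log2 ratios were 0.98 and 0.86, and the next LIPA probe set had 0.12. On the lower side, HSD17B7, an enzyme of cholesterol and oestradiol synthesis, read 2681, 995 and 2504, and NSDHL, which acts beside it in the cholesterol pathway, 948, 551 and 917. Other enzymes of synthesis lay on both sides of 0, such as SC5D (2111 and 3036) and FDPS (7927 and 5873), as did NPC2, the lysosomal partner of NPC1, at -0.19 on the log2 scale. The lipoprotein receptor SCARB1 differed little, at 7072 and 7466. Of 19 measured genes of cholesterol synthesis and transport 2 were 2-fold or more lower (LRP8 and HSD17B7), 0 were higher and the median was -0.14.

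The fatty acid carriers FABP3 and FABP4 were lower and lipoprotein lipase higher. FABP3, a cytosolic fatty acid carrier, read 19934 without pregnancy against 4058 early and 4329 late, and was 4.91-fold lower in early pregnancy. FABP4, another carrier, read 424, 114 and 111, whereas the carrier FABP5 read 2857, 3898 and 6253. LPL, which releases fatty acids from circulating triglyceride, read 154, 1144 and 1781, and its probe sets had log2 ratios of 2.89 and 2.17. ACSL1 (290.2 and 533), the carnitine transferase CPT1A (1192 and 1945) and the mitochondrial oxidation subunits HADHA and HADHB (0.50 and 0.78 on the log2 scale) lay in the same direction as LPL but under 2-fold. PLIN2, a coat protein of lipid droplets, was lower at 1853 and 1021. In this list of 31 measured genes 1 was 2-fold or more higher, 2 were lower and the median was 0.25.

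Several enzymes of retinoid, aldehyde and redox metabolism were among the highest ratios. ALDH1A1, which makes retinoic acid from retinaldehyde, read 211, 1786 and 1547 from non-pregnant to late pregnant, and its probe sets had log2 ratios of 3.08 and 2.36. It was far brighter on the arrays labelled myometrium, at 15835 in non-pregnant and 14994 in early pregnant tissue. Of 29 listed retinoid genes 7 were measured, 2 of them 2-fold or more higher (ALDH1A1 and RBP4, described with the uterine genes) and 0 lower. SORD, sorbitol dehydrogenase, read 1588, 6934 and 6790. EPHX1, a microsomal epoxide hydrolase, read 766, 3148 and 3522, and ADHFE1, a mitochondrial alcohol dehydrogenase relative, 125, 566 and 786. NQO1, a quinone reductase, read 1620, 4210.3 and 3410.0, and the selenium-binding SELENBP1 8560, 19604 and 19835. Late pregnant signals are levels on a further array and no second estimate of these ratios. GGT1, which breaks down extracellular glutathione, ran the other way, with 2085, 516 and 3397 and with -2.02 and -1.32 for its probe sets. Of 32 measured genes of glutathione and oxidative stress 2 were 2-fold or more higher, 1 lower, and the median was -0.11.

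Genes induced by interferon formed the list with the lowest median, although the lists were chosen with earlier results of these data known. MX1, an antiviral GTPase, read 9325, 2156 and 453 from non-pregnant to late pregnant ovary, 4.33-fold lower in the first comparison. IFIT3 read 4973, 1209 and 390.1, IFIT1 4123, 1341 and 365, and the ubiquitin-like modifier ISG15 6401, 1872 and 467. RSAD2, which makes an antiviral nucleotide, read 2412, 759 and 75.1. For each of them the early pregnant array lay between the other two. The next probe sets of IFIT1 and IFIT2 had log2 ratios of -1.48 and -1.36, but that of PML, listed at -2.19 as a bound, had -0.42. Those of SP110 and IFI44L lay above 0, at 0.29 and 0.31. All 33 interferon response genes on the array were measured. Of these, 14 were 2-fold or more lower, 0 were higher, 28 lay below 0 and the median was -0.90, against 2.47% lower among all named genes. Of the 33, 25 stood in the order non-pregnant over early pregnant over late pregnant, 75.8%, against 20.4% of all named genes. GBP2 (316 and 467) was the member with the highest ratio, at 0.57. PLAC8, a member of the list, read 2823, 709 and 334. DDX60 (439 and 142) and ISG20 (223 and 42.6), also interferon-induced but outside the list, were among the lowest genes.

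On the arrays labelled myometrium the same genes shared that direction only in part. MX1 was level at 1974 and 1951 and ISG15 higher at 604 and 1988. OAS1 (4620 and 2736) and XAF1 (753 and 399) were lower. Of 32 measured interferon genes there 2 were 2-fold or more higher, 3 lower and the median was -0.19. Over all named genes measured there 9.18% were higher and 10.3% lower, so these counts do not set the list apart. The difference between the tissues was not tested.

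**Figure D3:**
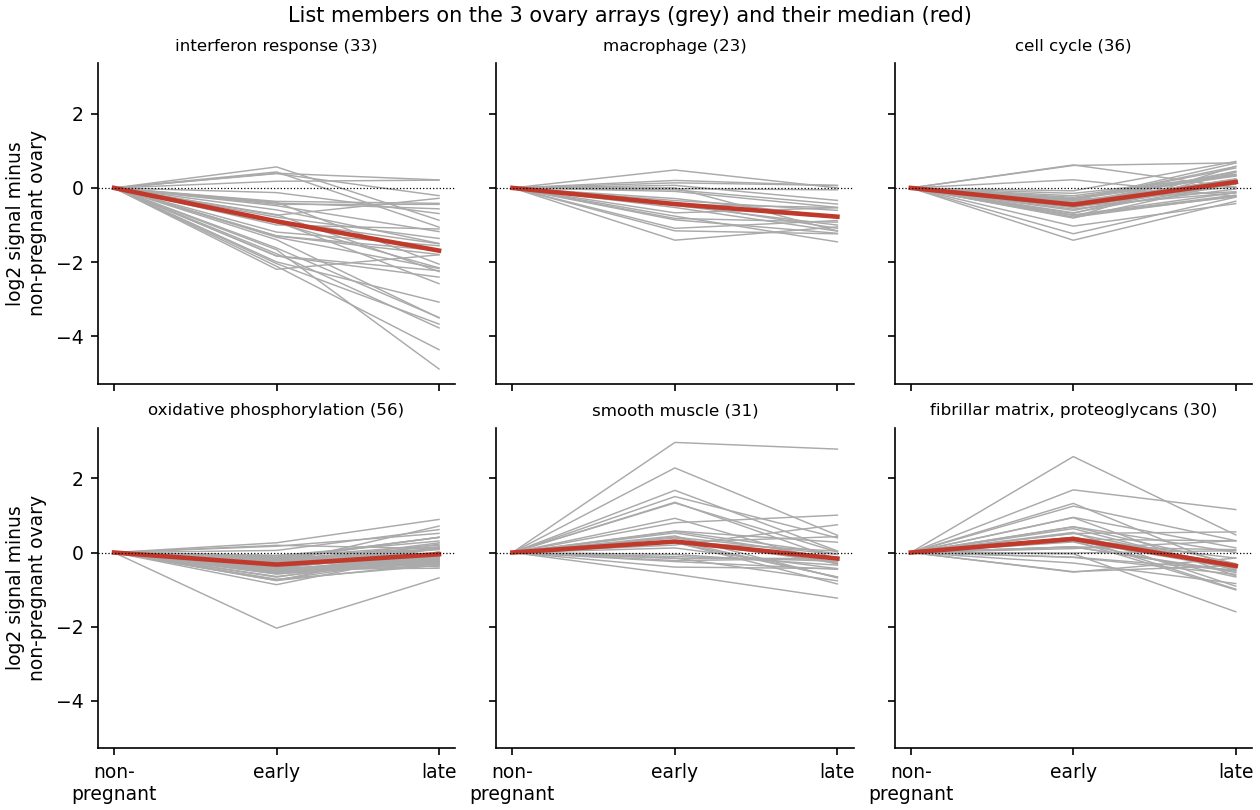
Log2 signal on each of the 3 ovary arrays minus that on the non-pregnant array (y, signals raised to the floor of 81.7), for the members of 6 gene lists measured in early or non-pregnant ovary (grey lines, 1 gene each) and their median (red). The interferon median falls to -0.90 and then further, the cell cycle and oxidative phosphorylation medians dip at early pregnancy alone, and the smooth muscle and matrix medians peak there.

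Most macrophage genes lay lower, as did most interferon genes. CD163, a scavenger receptor of macrophages, read 2938, 1380 and 1596, SPI1, their master transcription factor, 250.0, 94.1 and 121, and CD86, a costimulatory ligand, 290 and 130 in the first pair. Outside the macrophage list GPNMB, a glycoprotein abundant in lysosome-rich macrophages, read 3520, 1015 and 1145, with -1.79 and -1.72 for its probe sets. Of 23 measured macrophage genes 3 were 2-fold or more lower, 0 were higher and the median was -0.44. Of the 23, 18 lay below 0, against 57.9% of all named genes, and 5 above, such as FCGR2B at 0.20. FCGR3A (2645 and 2550) and MRC1 (961 and 901) were nearly level. Defining T cell markers were dim, summing to 892 and 571, with CD3D at 101 and 112, CD3E at 212 and 135 and CD3G at 139 and 132. Among 14 measured lymphocyte genes 2 were 2-fold lower, the marker CD2 (440 and 193) and the antibody joining chain JCHAIN (505 and 194), while 5 lay above 0. Whether these shifts account for any of the interferon values was not tested. Antigen presentation genes, by contrast, stayed near the centre: 0 of 23 reached 2-fold and the median was -0.03.

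Chemokines and cytokines differed in both directions, with 2 of 26 measured genes 2-fold or more higher, 4 lower and a median of 0.11. CXCL14 read 1489, 451 and 436, with both probe sets lower, and CXCL13, a B cell attractant, 471 and 216. SPP1, osteopontin, read 6637, 3188 and 1751, and MIF 9976, 4899 and 7602. CXCL2 (84.6 and 205) and CCL5 (76.1 and 202) were the higher ones, both near the floor, and the lymphatic chemokine CCL21 read 2099 and 4146. In the complement and coagulation list the pore component C7 read 1157, 5773 and 1993, with 2.32 and 1.79 for its probe sets. Together with kininogen KNG1 it was 2-fold or more higher among 31 measured genes, 0 were lower and the median was 0.19. In the list of blood and plasma proteins, 1 of 8 was 2-fold higher, the haemoglobin-binding HP (672, 3129 and 14136), and 1 lower, ORM1, with 491 and 233, whose next probe set was under the floor. HBB, a red blood cell marker, was level at 979 and 993.

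Contractile and matrix genes peaked in early pregnancy. CNN1, the actin-binding calponin of smooth muscle, read 546, 1746 and 563 in non-pregnant, early and late pregnant ovary. SYNM, an intermediate filament protein, read 95.4, 464 and 132, desmin DES 193, 494 and 170.1, and the myosin kinase MYLK 126, 359 and 166. In each of these the early pregnant array was the high one and the other two lay well below it. PDLIM3, a protein of muscle actin bundles, was the exception, with 145, 1133 and 999.9. ACTG2, smooth muscle gamma actin, had a log2 ratio of 1.34, but its next probe set had 0.01. ACTA2, the brightest marker of these cells, was level, at 23509 and 22689. In all, 6 of 31 measured smooth muscle genes were 2-fold or more higher, 0 were lower, and the median was 0.30. The early pregnant array was the highest of the 3 for 20 of the 31, 64.5%, against 26.2% of all named genes.

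The fibrillar matrix list behaved likewise, with 4 of 30 genes 2-fold or more higher, 0 lower, a median of 0.37, and 21 highest in early pregnancy. ASPN, a small matrix proteoglycan, read 145, 870 and 201, its relative LUM 575, 1854 and 1283, and LOX, which cross-links collagen, 956, 2396 and 697. The fourth was S100A4, a calcium-binding protein of fibroblasts, with a log2 ratio of 1.25. On the arrays labelled myometrium ASPN and LUM were brighter, at 4064 and 15608 in the non-pregnant tissue. Outside the lists THY1, a surface marker of fibroblasts, read 1700, 5540.3 and 3602, and its next probe set had a log2 ratio of 1.74. Matrix proteases and inhibitors leaned the other way, with a median of -0.37 over 18 genes, 1 of them 2-fold lower and 0 higher. That gene was TIMP1, the metalloproteinase inhibitor, which read 26058, 9078 and 7203. The 5 measured basement membrane genes did not reach 2-fold.

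Vessel genes differed by small amounts, but 16 of 25 were highest on the early pregnant array, 64%, much as for smooth muscle. Of 24 measured, TEK, the angiopoietin receptor, was 2-fold higher (358, 754 and 973), 0 were lower and the median was 0.18. Immediate early genes, transcription factors and kinases induced within minutes of a stimulus, peaked in early pregnancy. FOS read 1275, 4314 and 1158, SGK1 927, 2041 and 1729 and EGR1 1064, 2100 and 1254. Of 22 measured, 2 were 2-fold or more higher, 1 lower (IER3, 617 and 298), with a median of 0.35. Of the 22, 16 were highest on the early pregnant array, 72.7%, against 26.2% of all named genes. On the arrays labelled myometrium 10 of 22 measured immediate early genes were 2-fold or more higher, 0 were lower and the median was 0.86. Over all named genes measured there, 9.18% were higher and 10.3% lower, larger shares than in ovary. Small heat shock proteins of muscle, CRYAB (166 and 367) and HSPB6 (321 and 710.4), and DNAJB9 made up the 3 higher genes among 31 of heat shock and endoplasmic reticulum stress, with 0 lower and a median of -0.16.

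Most cell cycle genes were lower in early pregnancy, mainly by less than 2-fold, with log2 ratios from -1.41 to 0.62. TACC3, a spindle protein, read 565, 212 and 441, CDC45, of the replication helicase, 494, 210 and 416, and CENPF, of the kinetochore, 734, 360 and 548. Only these 3 of 36 measured genes were 2-fold or more lower, 0 were higher, but 33 lay below 0 and the median was -0.45, against 57.9% below 0 and -0.08 for all named genes. The early pregnant array was lowest for 33 of the 38 members above the floor on any ovary array, 86.8%, against 35.1% of all named genes. PCNA, the replication clamp, was typical with 2828, 1902 and 2772. TYMS, thymidylate synthase, went against the rest at 280 and 427, and the cell cycle inhibitor CDKN1B was higher at 1319 and 2028, though its next probe set had -0.35. On the arrays labelled myometrium 14 of 38 measured cell cycle genes were 2-fold or more lower, 1 was higher and the median was -0.82. Among all named genes measured on those arrays 10.3% were lower and 9.18% higher.

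Genes of oxidative phosphorylation showed the same low point. Of 56 measured, 52 lay below 0 with a median of -0.33, against 57.9% and -0.08 for all named genes. Of the 56, 51 were lowest on the early pregnant array, 91.1%, against 35.1% of all named genes. Just 1 was 2-fold lower, ATP5I, a subunit of the ATP synthase (2091, 508 and 1302), whose next probe set was under the floor on both arrays, and 0 were higher. Under quantile normalization the median was -0.32 and 48 were lowest, 85.7%, against 37.2% of all named genes. Glycolysis and hypoxia genes had a median of -0.31, with ADM alone of 25 at 2-fold. All 58 measured ribosomal protein genes lay below 0 with a median of -0.28 and none at 2-fold, but this rested on scaling: under quantile normalization the median was -0.02. Apoptosis genes lay near the centre, with 0 of 14 at 2-fold and a median of -0.11.

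**Figure D4:**
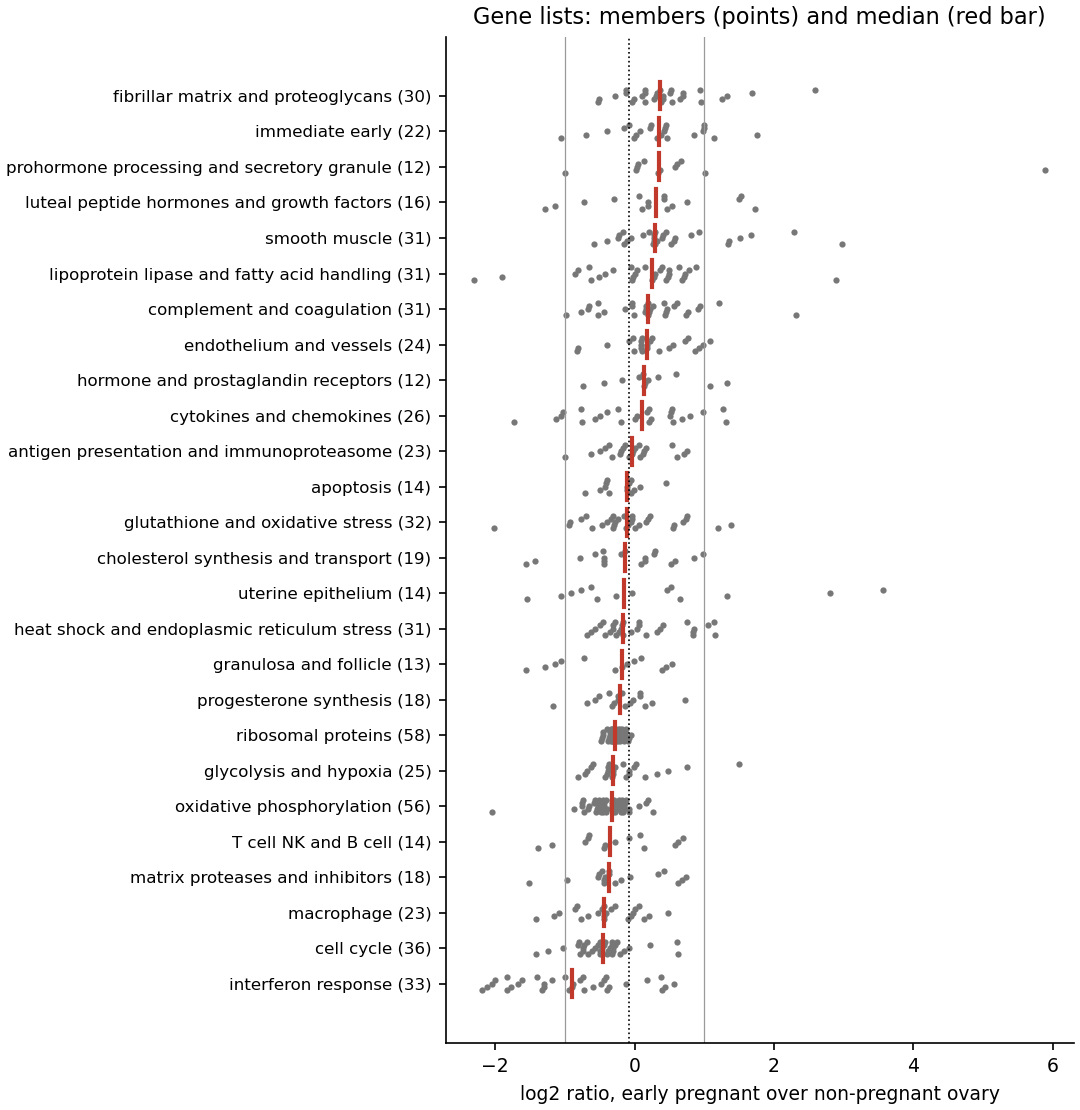
Log2 ratio, early pregnant over non-pregnant ovary, of each measured member (grey points) and the median (red bar) of the 26 gene lists with at least 10 measured genes, whose number stands in brackets. The dotted line is the median of all named genes, -0.08, and the thin lines mark 2-fold; the interferon list lies farthest to the left at -0.90 and the fibrillar matrix list farthest to the right at 0.37.

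A further set of signals on the early pregnant ovary array came from transcripts of 10000 or more in early pregnant tissue labelled myometrium, at a small percentage of the level there. PLET1, a surface protein of trophoblast and other epithelia, read 140.0, 1661 and 14.2 in ovary from non-pregnant to late pregnant, against 32821 in early pregnant tissue labelled myometrium. RBP4, the retinol carrier secreted by uterine glands, read 12.9, 568 and 40, and 22309 on the latter, although its next ovary probe set had a log2 ratio of -0.69. UPTI, the uterine plasmin and trypsin inhibitor, read 4.7, 314 and 13.8, and 22272. The next probe sets of PLET1 and UPTI had log2 ratios of 0 and 0.17 in ovary. SERPINA3-2 read 12.9, 338 and 128, and 21492, and the steroid sulfotransferase SULT2A1 79.5, 309 and 35.6, and 26616. PAG6, a pregnancy-associated glycoprotein of trophoblast, read 36.6, 240 and 18.8, and 22022, and its next probe set had a log2 ratio of 1.69 in ovary. Apart from PLET1 at 140.0 in non-pregnant and SERPINA3-2 at 128 in late pregnant ovary, all of these lay under the floor on those arrays.

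The next count takes probe sets by their uterine signal and their level in non-pregnant ovary, a choice made after the data were seen. There were 23 probe sets at the floor in non-pregnant ovary with a signal of 10000 or more on the early pregnant array labelled myometrium. In early pregnant ovary 17 of them were above the floor, 73.9%, compared with 7.08% of the 9423 other probe sets at the floor in non-pregnant ovary. In late pregnant ovary 2 were above it, 8.70%, compared with 5.14%. All 23 read higher in early pregnant than in non-pregnant ovary, with a median of 148 against 26.8, compared with 4553 of the 9423 others. Their signal in early pregnant ovary was between 0.162% and 3.30% of that in the uterine tissue, with a median of 1.09%. No such shift was seen in the late pair: of 28 probe sets at the floor in non-pregnant ovary and at 10000 or more in late pregnant tissue labelled myometrium, 1 was above the floor in late pregnant ovary. Of the defining epithelial markers, which are bright in that tissue, EPCAM read 191 and 132 in non-pregnant and early pregnant ovary, KRT8 383 and 249, KRT19 133 and 129, CDH1 205 and 322 and KRT18 10.5 and 36.7. Of the 110 genes 2-fold or more higher in early pregnant ovary, 11 had such a uterine signal, and 99 remain without them. ALDH1A1 (14994), PLBD1 (18330), THY1 (15460) and LUM (12122) were among the 11, and were above the floor in non-pregnant ovary too. Carry-over of RNA between samples was not tested as a source of signal for any of these genes. The ratios of PLET1, RBP4, UPTI, PAG6, SERPINA3-2 and SULT2A1 are thus signals of this array and not shown to be transcripts of ovarian cells.

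**Figure D5:**
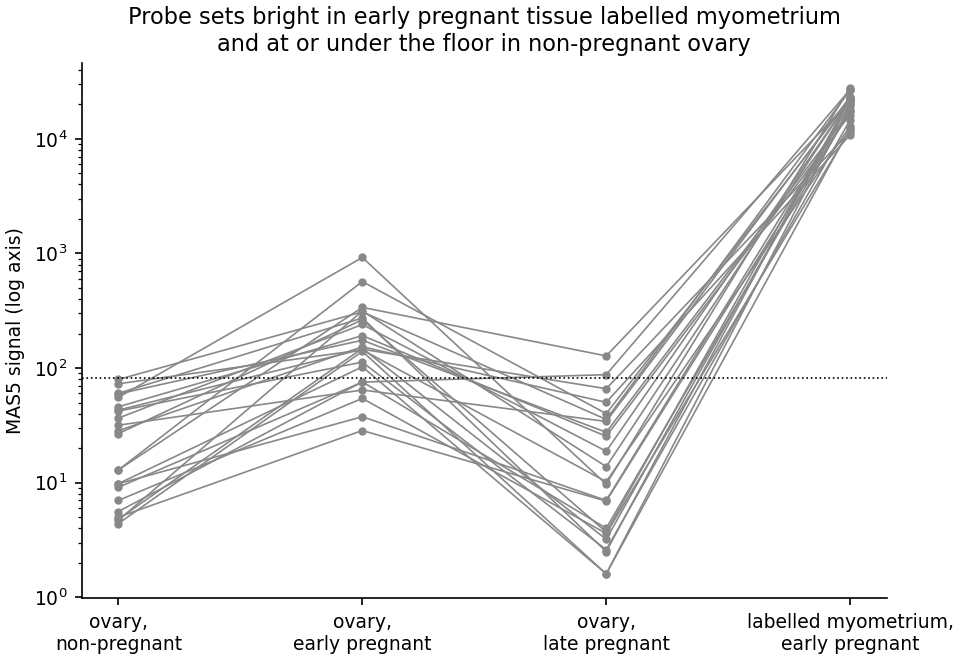
MAS5 signal (log axis) of the 23 probe sets with 10000 or more on the early pregnant array labelled myometrium and at or under the floor of 81.7 (dotted) in non-pregnant ovary, 1 line per probe set. In early pregnant ovary 17 lie above the floor, and in late pregnant ovary 2 do.

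The lists of uterine epithelium and of placental and trophoblast markers contain several of these genes. In the first, 3 of 14 measured genes were 2-fold or more higher (PLET1, RBP4 and DSP), 2 were lower (ACP5 and SPP1) and the median was -0.15. In the second, 2 of 6 were higher, PAG6 and GATA2 (111 and 282), and GATA2's next probe set was at the floor. Neither list of mesothelium (0 of 4 at 2-fold) nor of nerve (1 of 5, CHGA, lower) had a higher member.

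Over all genes, the ovary comparison can be set beside the same stages in tissue labelled myometrium, which shares no array with it, though both tissues may come from the same pigs. There 9.18% of measured named genes were 2-fold or more higher in early pregnancy and 10.3% lower. Of the 110 genes higher in ovary, 99 were measured there, and 35 of these, 35.4%, were higher there too, while 13, 13.1%, were lower. They made up 7.95% of the 440 genes higher in the uterine tissue and measured in ovary. LPL (102 and 1368), HP (13.7 and 893), AGT (338 and 1614), PLBD1 (102 and 18330) and the KIAA1324 gene (72.0 and 743) were among them. PLET1, RBP4, UPTI, PAG6, SERPINA3-2 and SULT2A1, not shown above to be transcripts of ovarian cells, were also among the 35. The part of carry-over in this overlap was not tested. Of the 135 lower in ovary, 126 were measured, with 21, 16.7%, lower and 18, 14.3%, higher in uterine tissue.

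Among genes with large ratios outside these groups, KIAA1324 was at least 10.8-fold higher in ovary (25.4, 882 and 1426), and the phospholipase-like PLBD1 4.61-fold (3164, 14589 and 22023). DUOX2, a hydrogen peroxide generating oxidase, read 64.6, 384 and 202, CAMK2N1, an inhibitor of calmodulin kinase II, 139, 480.2 and 333, and ITIH4 267, 843 and 687. NSF, of vesicle fusion, read 112 and 375, but its next probe set had -0.06. On the lower side, MRO read 1337, 59.5 and 7.5 and was at least 16.4-fold lower, and BSP1, of the binder of sperm family, read 582, 2.6 and 14. The kinesin KIF5B read 537, 150.2 and 216, and the enamel protein gene AMBN 1033, 342 and 199. TMEM26, GDPD5 and DUSP23 were between 3.05-fold and 3.24-fold lower, and VNN1, PIGL, SH3GL3 and CPS1 at least 2.65-fold to 2.98-fold. When a further probe set of a gene was measured, it lay on the same side in 23 of 27 higher and 25 of 30 lower genes, and itself reached 2-fold in 13 and 10. The next probe sets of DES, LOX, CD163, CRYAB and KNG1, all past 2-fold, had a log2 ratio of 0.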

How the data were processed

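The authors deposited a table of linear intensity values, which the submitters' processing notes credit to MAS5, with no version or settings named. Per the labels' protocols, total RNA was extracted with Trizol and labelled with biotin for single-colour arrays. The trimmed mean, leaving out 2% at each end, was 500.1 on each array, so the arrays had been scaled to a common level, which hides any change in total RNA. Of 24123 probe sets, 124 controls were left out.

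Signals were floored at 81.7, their 40th percentile over the 6 arrays. Names came from the platform annotation: 10069 probe sets had 1 gene symbol, 198 several and 13732 none, and 9961 symbols were matched to current records by gene identifier with 0 changed. After leaving out locus numbers, 9774 probe sets named 6567 genes. Symbols can be old. Log2 ratios were computed with Python 3.11.15, numpy 2.4.6 and pandas 2.3.3 and tested on simulated data.

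Genes named were the 20 highest and 20 lowest ratios above the floor on both arrays, up to 8 bounds in each direction, members of 35 gene lists at 2-fold and up to 4 others from each, and 12 fixed genes; others were named after their values were seen. The members and lists were chosen with earlier results of these data known. Alternatives were floors at the 25th and 60th percentiles, a pseudocount of 16, quantile normalization, median centring, averaged probe sets and other filters. With 1 array a group, precision is limited by array number and no interval is given. Sequences and gene positions were not analysed here.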

Additional observations from a re-analysis of the deposited data

Results flagged for a closer look

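In 13 of the named genes, early pregnant over non-pregnant ratios were past 2-fold in opposite directions in ovary and in tissue labelled myometrium, with signals above the floor on all 4 arrays. Each ratio rests on 1 array against 1, and the difference between tissues was not tested. Of all genes 2-fold or more higher in ovary and measured in the uterine tissue, 13.1% were lower there, against 10.3% of all named genes. Of those lower in ovary, 14.3% were higher there, against 9.18%. Higher in ovary and lower in the uterine tissue were ASPN, with log2 ratios of 2.59 and -1.70, ESR1, with 1.33 and -3.19, and SELENBP1, with 1.20 and -1.05. ESR1 lay near the floor in non-pregnant ovary (92.4) and in early pregnant uterine tissue (98.6). The other 10 were lower in ovary and higher there. FABP3 had -2.30 and 2.07, GGT1 -2.02 and 1.30, and CXCL14 -1.72 and 4.43. The interferon-induced ISG15 had -1.77 and 1.72, and RSAD2 -1.67 and 1.55. ACP5 had -1.55 and 5.26, SPP1 -1.06 and 4.44, and IER3 -1.05 and 2.58. The steroid enzymes HSD17B7 and HSD11B2 had -1.43 and 3.01, and -1.17 and 2.47.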

How the results depend on the processing

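Each side is 1 array, so no error between animals can be given, and signals near the floor, where background limits the array, are the least certain. No paired analysis was possible because each group has 1 array. Of 107 named genes past 2-fold, all kept their direction under each alternative they could be measured in, and between 71 of 95 (floor at the 60th percentile) and all 107 (25th percentile, no filter) stayed past it. With the floor at the 25th percentile, 687 probe sets were higher and 829 lower, 182 and 211 named genes, and 55 and 42 in both tissues; list medians were 0.193 for luteal peptides, -0.342 for macrophage, 0.007 for cytokine and -0.273 for uterine epithelium genes. At the 60th percentile these counts were 185 and 122, 65 and 65, and 22 and 5, with medians of 0.42 for luteal peptides, -0.719 for interferon, 0.007 for cytokine, -0.162 for glycolysis and 0.23 for uterine epithelium genes. A pseudocount of 16 gave 504 lower probe sets, 0.535 for prohormone processing and -0.238 for apoptosis. Quantile normalization gave -0.181 for glycolysis, -0.00758 for heat shock and -0.0155 for ribosomal genes, and averaged probe sets -0.0602 for heat shock. Without a filter, medians were 0.189 for luteal peptides, 0.0969 for prohormone processing, -0.105 for progesterone synthesis, -0.00692 for granulosa, -0.286 for macrophage, -0.127 for matrix protease and 0.234 for immediate early genes, and 0 for lipid, T cell, cytokine and uterine epithelium genes. Genes above the floor on both arrays gave 0.418 for luteal peptides, -0.242 for apoptosis and -0.266 for uterine epithelium, and 13 genes lower in both tissues. Leaving out probe sets bright in early pregnant myometrium, an alternative chosen after seeing the data, gave 0.193 for luteal peptides, 0.194 for cytokines and -0.066 for heat shock. The cause of these shifts was not tested, other than the smaller or larger number of genes each filter and floor leaves.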

Other observations

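Enzymes that break down branched-chain amino acids in mitochondria included several higher genes in early pregnant ovary. IVD, which oxidizes the leucine product isovaleryl-CoA, read 808, 2425 and 2782 in non-pregnant, early and late pregnant ovary, and ACADSB, which acts on the isoleucine branch, 1337, 3043 and 6596. BCKDHB, a subunit of the dehydrogenase complex that commits the 3 amino acids to breakdown, read 2013, 4438 and 5084, and the mitochondrial transaminase BCAT2 261, 560 and 509. In each of these the non-pregnant array was the low one. The cytosolic transaminase BCAT1 ran the other way, with 137 and 51.9. In all, 4 of 19 measured genes of the pathway were 2-fold or more higher and 0 lower, with a median log2 ratio of 0.23 and 12 above 0. Over all measured named genes 2.01% were higher and 2.47% lower, 42.1% lay above 0 and the median was -0.08. Genes of peroxisomes, organelles that shorten very long fatty acids and break down peroxide, were mixed. PEX3, needed to form them, read 333, 783 and 1248, and the carbonyl reductase DHRS4 682, 1492 and 1572. Catalase, CAT, read 6908, 11585 and 13140.0, and the lipid carrier SCP2 6748, 11461 and 11542, both under 2-fold. Of 26 measured, 3 were 2-fold or more higher, 1 was lower (ABCD4, 280 and 132), and the median was 0.14. Both lists were drawn up after the values of some members had been seen, and neither was tested.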
